A study of Mus musculus with 16 samples.

Results

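Tight junctions and desmosomes are the belts and rivets that hold epithelial sheets together, and 37 mouse genes that build them were examined for H3K27me3, the repressive histone mark that the Polycomb enzyme EZH2 writes. The genes were taken from a list of names, drawn up with earlier results of these data known, out of 21631 autosomal and X-linked genes that code for protein. They comprise 24 tight junction genes (17 claudins, 3 MARVEL proteins and 4 scaffold or adhesion molecules) and 13 desmosome genes (5 cadherins, 3 plakins and 5 armadillo proteins). A gene counted as marked in a library when a deposited peak overlapped the gene body extended by 2 kb on each side by at least 1 base, and the remaining 21594 protein-coding genes, measured in the same way, gave the background.

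The cells were CCN6KOT, a primary culture from a spindle metaplastic mouse breast tumour that lacks CCN6, a secreted matrix protein of the CCN family. They carried either a lentivirus with dnTCF4, a TCF4 that acts as dominant negative and so blocks the output of beta-catenin, or the control virus named PPGS, and both groups were selected with puromycin. Both groups therefore share the CCN6 loss, the viral transduction and the drug, and the labels name 1 cell line. H3K27me3 was measured in 4 control and 4 dnTCF4 libraries by ChIPmentation, a form of ChIP whose adapters are put on by a transposase while the chromatin is still on the beads. The comparison addresses whether blocking TCF4 alters where this mark sits. Peak lists hold no expression, so the cell type could not be checked against its markers.

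In the tight junction, claudins form the paracellular barrier, occludin and the other MARVEL proteins (tricellulin is Marveld2) shape its strands and corners, and scaffolds such as ZO-1 (Tjp1) tie it to actin. In the desmosome, desmocollins and desmogleins bridge neighbouring cells, and plakoglobin (Jup), plakophilins and desmoplakin (Dsp) anchor them to keratin filaments. Loss of these junctions is a hallmark of the spindle and mesenchymal states of carcinoma cells.

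The peak lists differed widely in length within each group. They held between 426 and 54070 peaks in control and between 191 and 21492 in dnTCF4 libraries. Sequencing depth is unknown, since the lists hold no read counts, and a gene without a peak may still carry the mark. Control 1, control 2, dnTCF4 2 and dnTCF4 4, the 4 shortest lists, had no peak at any of the 37 genes, so for each of the 37 genes those libraries have 0% of the window under a peak. With 0 of 37 genes marked, the exact 95% binomial interval for each of them reaches 9.49%, and it covers counting error only. The labels do not say whether libraries of a group came from separate cultures, so the tests measure the spread between libraries, which may be technical.

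H3K27me3 covered parts of 12 of the 37 genes. These were 6 claudins (Cldn1, Cldn7, Cldn10, Cldn14, Cldn16 and Cldn23), the MARVEL genes Ocln and Marveld3, the desmosomal cadherins Dsc3 and Dsg2, the plakin Dsp and the plakophilin Pkp1. At the same rule 21.4% of the other protein-coding genes had a peak in at least 1 library. None of the 4 scaffold and adhesion genes (Tjp1, Tjp3, Cgn and F11r) carried a peak in any library. All 12 genes were marked in control 3, and 11 of them, all but Cldn1, were marked in dnTCF4 1. Of the 37, 7 were marked in at least 3 libraries, as were 10.5% of other protein-coding genes. Without control 3 the number marked in at least 1 library was still 12.

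Around the starts of several of these genes the peaks stood on both sides and left the start itself free, so the promoter sequences are shown first. The RefSeq promoter table (GRCm38.p6, the build of the peaks) held 23 of the 37 genes, with 250 bases before and 50 after each start. The following 5, each at the outermost start of its gene, lay between flanking peaks of a single library (Ocln, Dsp, Cldn1 and Cldn14) or under a peak themselves (Cldn7, and Cldn14 in control 3). They are written 5′ to 3′ with CpG dinucleotides in capitals.
Ocln: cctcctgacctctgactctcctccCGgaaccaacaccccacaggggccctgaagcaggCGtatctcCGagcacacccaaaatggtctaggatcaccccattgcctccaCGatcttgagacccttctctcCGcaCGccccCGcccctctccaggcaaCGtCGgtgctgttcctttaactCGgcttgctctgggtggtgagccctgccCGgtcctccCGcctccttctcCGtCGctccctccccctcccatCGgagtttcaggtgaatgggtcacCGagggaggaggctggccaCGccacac
Dsp: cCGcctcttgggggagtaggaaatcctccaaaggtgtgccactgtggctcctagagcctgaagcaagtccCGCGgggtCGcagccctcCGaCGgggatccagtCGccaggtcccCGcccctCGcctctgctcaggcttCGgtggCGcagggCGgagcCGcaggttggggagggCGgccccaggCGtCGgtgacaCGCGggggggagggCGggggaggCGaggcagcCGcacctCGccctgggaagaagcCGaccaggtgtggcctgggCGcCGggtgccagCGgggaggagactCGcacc
Cldn1: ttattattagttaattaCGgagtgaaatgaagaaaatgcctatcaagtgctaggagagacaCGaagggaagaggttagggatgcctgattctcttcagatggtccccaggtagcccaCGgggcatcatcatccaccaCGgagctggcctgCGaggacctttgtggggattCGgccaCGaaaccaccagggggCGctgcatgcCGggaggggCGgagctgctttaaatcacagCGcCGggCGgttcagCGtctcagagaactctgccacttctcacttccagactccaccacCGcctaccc
Cldn7: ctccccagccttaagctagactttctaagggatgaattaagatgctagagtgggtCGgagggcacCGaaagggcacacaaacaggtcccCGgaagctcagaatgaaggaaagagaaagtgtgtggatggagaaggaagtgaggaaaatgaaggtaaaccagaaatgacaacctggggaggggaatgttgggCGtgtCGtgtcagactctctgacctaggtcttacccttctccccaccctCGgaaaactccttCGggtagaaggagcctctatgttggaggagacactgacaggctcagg
Cldn14: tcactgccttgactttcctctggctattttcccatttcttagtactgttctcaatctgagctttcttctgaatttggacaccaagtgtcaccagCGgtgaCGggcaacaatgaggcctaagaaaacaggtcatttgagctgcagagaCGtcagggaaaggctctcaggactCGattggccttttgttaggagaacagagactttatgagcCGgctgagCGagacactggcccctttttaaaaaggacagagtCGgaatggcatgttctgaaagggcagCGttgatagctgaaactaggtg

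The outermost Ocln promoter (chr13:100552669-100552968, minus strand) held 17 CpGs, at 0.601 of the number expected from its C and G content. A second listed Ocln promoter, not printed, lies in the same gap and held 24 at 0.695. The promoter of Dsp (chr13:38151044-38151343, plus strand) held 27 at 0.686, and that of Cldn1 (chr16:26371790-26372089, minus strand) held 15 at 0.638. The 2 promoters that lay under a peak held fewer CpGs than these. The Cldn7 promoter (chr11:69964529-69964828, plus strand) held 7 CpGs at 0.358 of expectation and was under a peak in control 3 and dnTCF4 1. The Cldn14 promoter (chr16:94008788-94009087, minus strand) held 8 at 0.467 and was under a peak in control 3 only. The contrast does not extend to all promoters of marked members. That of Cldn16 (5 CpGs at 0.286) and the outer one of Cldn10 (4 at 0.417) lay under no peak.

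Of the claudin genes, Cldn23 had the largest share of its window under peaks. The gene is short and lies on chromosome 8 (35824709 to 35826559). Peaks covered 53.7% of its 5.85 kb window in control 3, 20.5% in control 4 and 10.8% in dnTCF4 1, and 0% in the other 5 libraries. Both long control lists lay above the highest dnTCF4 library, but the groups overlapped, because control 1 and control 2 had no peak. In control 3 a stretch of 2.09 kb reached from outside the gene into its body, and another of 2.68 kb began 0.949 kb beyond its other end.

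Cldn14, known from hereditary deafness and from kidney calcium handling, was one of the 2 genes marked in 2 libraries of each group. It lies on chromosome 16 (93919031 to 94008837), and peaks took up 10.9% of its 93.8 kb window in control 3. The share was 0.701% in control 4, and the dnTCF4 libraries 1 and 3 had 5.09% and 0.312%. The order of these 4 libraries mixes the groups. A region of 0.397 kb deep in the gene (93972038 to 93972434) had a peak in all 4 of them. By the authors' fold enrichment its peaks stood at percentile 0.390 of control 3, 82.5 of control 4, 3.28 of dnTCF4 1 and 16.2 of dnTCF4 3. By −log10 q these percentiles were 52.7, 96.6, 84.5 and 58.0. The widest single peak at any of the 37 genes, 6312 bp from 94004237 to 94010548, lay over its outermost start in control 3. In dnTCF4 1 the start was free, between 2 peaks that stood 2.66 kb apart.

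Cldn10, which encodes a pore-forming claudin of secretory and kidney epithelia, carried 7 peaks in control 3 and 2 each in control 4 and dnTCF4 1. They covered 4.92%, 0.413% and 0.698% of its 90.7 kb window. The control 3 peaks gathered around its inner promoter, the first 14.5 kb before and the last 7.11 kb after that start, while 1 of the 2 dnTCF4 1 peaks lay 1.57 kb before the outer start, where no control library had a peak. One control 3 peak in Cldn10 (118859745 to 118860035) had the highest fold enrichment of any control 3 peak at the 37 genes, 4.01, at percentile 99.3 of that list. Fold enrichments are the authors' own values per peak.

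Cldn1, a barrier claudin of skin and breast epithelium, was the only member marked in control and not in dnTCF4 libraries. Peaks covered 5.71% of its 19.2 kb window in control 3 and 1.38% in control 4. No region was shared between them: the control 4 peak lay 6.38 kb inside the gene, and the nearest of the 3 control 3 peaks on each side of the start lay 1.27 kb inside and 0.612 kb before it. Among other protein-coding genes, 2% had peaks in 2 or more control libraries and in 0 dnTCF4 libraries. The reverse held for 0.0602% of them and for no member.

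Cldn7 and Cldn16 were each marked in control 3 and dnTCF4 1 only. Cldn7, a claudin common to most simple epithelia, had 1 peak in each library, covering 15.4% and 3.21% of its 7.11 kb window. Both peaks lay at its outermost start, and both were weak for their lists. Their fold enrichments stood at percentile 16.1 of control 3 and 3.18 of dnTCF4 1, and their −log10 q values were 1.08 and 1.05. Cldn16, a kidney claudin of magnesium uptake, had 5.94% and 0.973% of its window covered. Its 3 control 3 peaks and its 1 dnTCF4 1 peak did not overlap, so these libraries marked the gene at different places. Of all control 3 peaks, 27.7% overlapped a dnTCF4 1 peak, and of all dnTCF4 1 peaks 79.0% overlapped a control 3 peak.

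The other 11 claudins had no peak in any library, like most other protein-coding genes, of which 21.4% had one. These claudins include Cldn3 and Cldn4, whose low expression, with that of Cldn7, marks the claudin-low class of breast tumours. The windows of Cldn3 and Cldn4 span 5.26 kb and 5.81 kb. Among other genes with windows under 10 kb, 13.3% had a peak in any library. Cldn5, the claudin of blood vessels, also lacked a peak. The nearest peak of any library lay 7.80 kb from Cldn3, 41.1 kb from Cldn4, 104 kb from Cldn5 and 601 kb from Cldn8. All 25 unmarked members were at least 7.67 kb from a peak, that of Cldn12 in control 3, so none stood just outside the 2 kb limit.

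**Figure D1:**
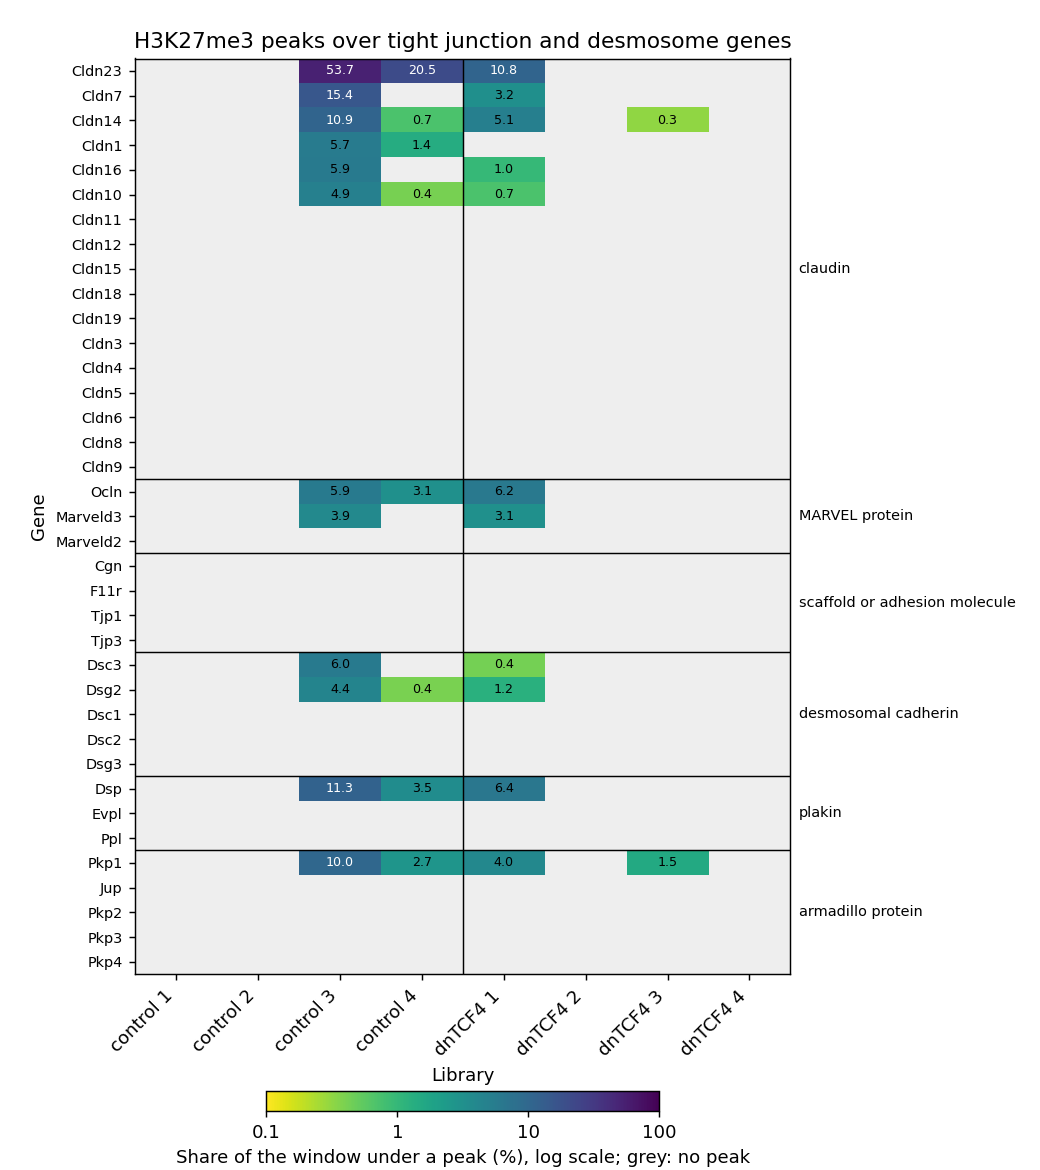
Share of each gene's window (gene body and 2 kb on each side) under H3K27me3 peaks, in percent, for the 37 genes (rows, by role) and 8 libraries (columns). Colour is on a log scale and grey marks no peak. Coloured cells fill control 3 (12 genes), control 4 (8), dnTCF4 1 (11) and dnTCF4 3 (2), and the highest is Cldn23 in control 3 at 53.7%.

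Ocln, the gene of occludin, was marked in the 3 longest lists. Peaks covered 5.88% of its 60.2 kb window in control 3, 3.12% in control 4 and 6.18% in dnTCF4 1, and 0% in the other 5. The dnTCF4 1 value lay above every control library, which held for no other of the 12 genes. All 6 peaks formed the same 2 regions, one inside the gene (100549057 to 100551274) and one before it (100553217 to 100555796). In all 3 libraries the start lay in the gap between them, which spanned 2.09 kb in control 3, 2.51 kb in control 4 and 1.94 kb in dnTCF4 1.

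Marveld3, a MARVEL protein that also restrains stress kinase signalling, had 3.89% of its 18.3 kb window covered in control 3 and 3.08% in dnTCF4 1. A region 0.684 kb inside one end of the gene (109960880 to 109961521) was shared by both libraries. Marveld2 had no peak within 29.1 kb.

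Pkp1 was the desmosome gene marked in the most libraries. It encodes plakophilin 1, which clusters desmosomal cadherins in stratified epithelia, and lies on chromosome 1 (135871394 to 135919207). Of its 51.8 kb window, control 3 peaks covered 9.99% and control 4 peaks 2.72%, and the dnTCF4 libraries 1 and 3 covered 4.02% and 1.51%. The groups overlapped here too. A region at 135913919 to 135916346 inside the gene and one at 135919716 to 135921754 just outside it were each marked in all 4. The outer region reached a fold enrichment of 5.44 in dnTCF4 3, the highest at any of the 37 genes, at percentile 98.9 of that list, while it was 2.97 in control 3, at percentile 43.6. With only the 191 peaks of highest −log10 q of each library, 191 being the length of the shortest list, Pkp1 in dnTCF4 3 was the only marked member in any library.

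Dsp, the gene of desmoplakin, carried 6 peaks in control 3 and 4 each in control 4 and dnTCF4 1. They covered 11.3%, 3.49% and 6.44% of its 51.3 kb window, so the dnTCF4 library lay between the 2 controls. A region of 4.39 kb before the start (38146344 to 38150732) and one 2.87 kb inside the gene (38154165 to 38155463) were marked in all 3 libraries. Deeper in the gene the libraries differed, with 7 further regions of which 1 was shared by control 4 and dnTCF4 1 and 6 belonged to a single library.

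Among the desmosomal cadherins, Dsg2, the desmoglein found in simple as well as stratified epithelia, had 4.40% of its 50.5 kb window covered in control 3, 0.406% in control 4 and 1.25% in dnTCF4 1. A region 0.855 kb inside its lower-coordinate end was marked in all 3. Dsc3, a desmocollin of basal layers, had 5.97% covered in control 3 and 0.427% in dnTCF4 1, in regions that did not overlap. Dsc1, Dsc2 and Dsg3, neighbours of these genes on chromosome 18, had no peak, nor did Jup, Pkp2, Pkp3, Pkp4, Ppl and Evpl. The envelope genes Ppl and Evpl lay 15.7 kb and 41.9 kb from the nearest peak.

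**Figure D2:**
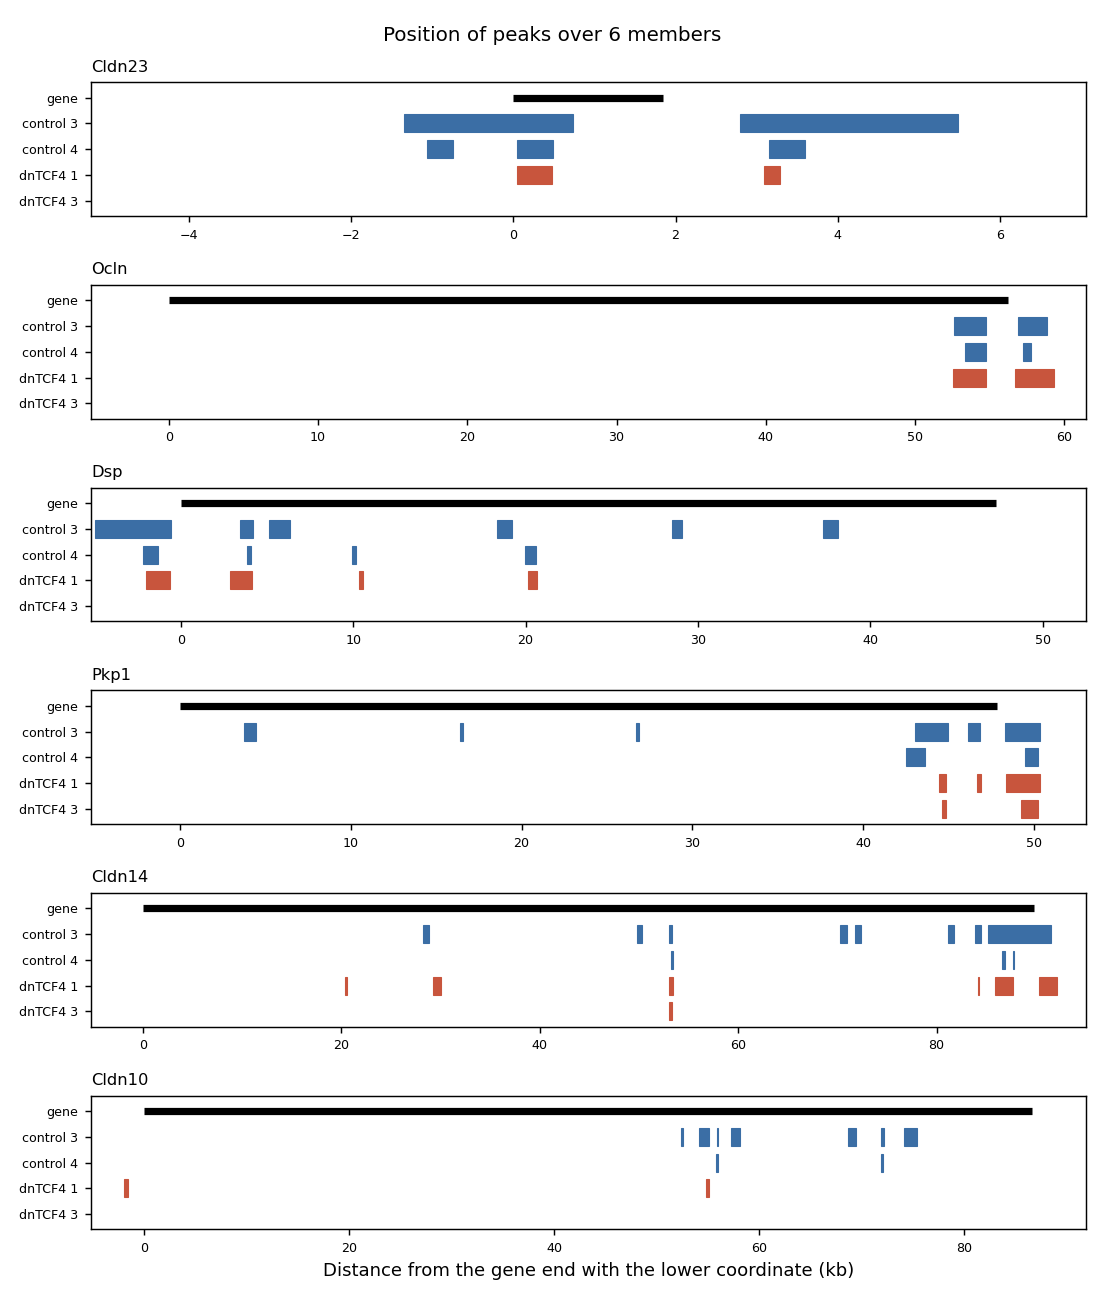
Position of the H3K27me3 peaks of control 3, control 4, dnTCF4 1 and dnTCF4 3 (rows) over 6 members, in kb from the gene end with the lower coordinate. The black bar is the gene, blue bars are control peaks and red bars dnTCF4 peaks. At Ocln the peaks of 3 libraries stack in 2 blocks around the right end of the gene, and at Cldn14 a narrow region is marked in all 4 libraries.

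Between the groups, no gene passed the test. Fisher's exact test of libraries with and without a peak, 4 against 4 and two-sided, gave 0 of 21631 genes an adjusted p under 0.05 (Benjamini-Hochberg), a background of 0%, and 0 an unadjusted p under 0.05. The smallest p this exact test can give is 0.0286. The exact p was 0.429 for Cldn1 and 1 for the other 36 members, with an adjusted p of 1 for all. The exact permutation test of the covered share over 70 assignments of libraries also called 0 genes after adjustment, and 1 gene, which is not a member, had an unadjusted p under 0.05. Its lowest p for a member was 0.429. For any gene to pass after adjustment, 57.1% of all genes would have had to reach that smallest p.

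Control libraries marked 5 ± 6 of the 37 genes and dnTCF4 libraries 3.25 ± 5.25 (mean ± SD, n = 4 each). The mean shares were 13.5% and 8.78% of members. Among other protein-coding genes they were 8.56% and 5.36%, also higher in control. In the order of their numbers the control counts were 0, 0, 12 and 8, and the dnTCF4 counts 11, 0, 2 and 0. The difference of -1.75 genes is smaller than the spread within either group. It turned to 0.583 without control 3. It was -4.33 without dnTCF4 1, -3.42 without control 1 or control 2, -0.75 without control 4, -1.33 without dnTCF4 3 and -0.667 without dnTCF4 2 or dnTCF4 4.

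In each of the 3 longest lists a larger share of members than of other genes was marked. In control 3, 12 of 37 members (32.4%, exact 95% binomial interval 18% to 49.8%) were marked, against 20.1% of other protein-coding genes. Control 4 marked 8 (21.6%, 9.83% to 38.2%) against 12.4%, and dnTCF4 1 marked 11 (29.7%, 15.9% to 47.0%) against 13.7%. In dnTCF4 3 the 2 marked members (5.41%, 0.661% to 18.2%) stood beside a background of 5.13%. In control 1, control 2, dnTCF4 2 and dnTCF4 4, where no member was marked, the background was 0.676%, 1.06%, 0.255% and 2.41%. These shares describe the libraries, since genes are not replicates, and gene length moves with them. Its part in the difference from other genes was not tested beyond the length classes given below.

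**Figure D3:**
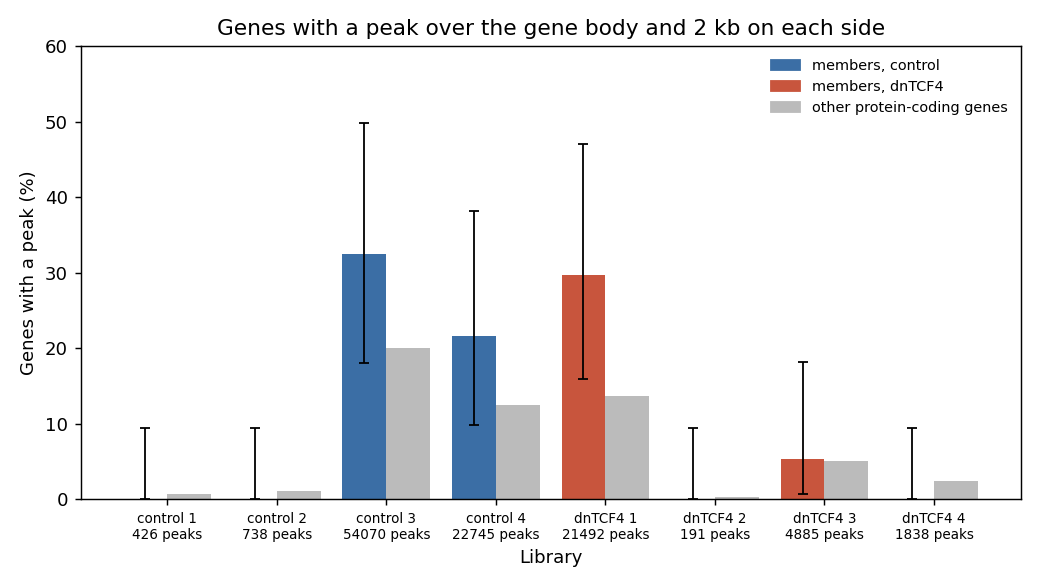
Share of genes with at least 1 H3K27me3 peak over the gene body and 2 kb on each side, in percent, for each library. Blue and red bars are the 37 members with exact 95% binomial intervals and grey bars the other 21594 protein-coding genes. Members reach 32.4% in control 3 and 29.7% in dnTCF4 1, where the grey bars stand at 20.1% and 13.7%.

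Coverage in bases gave a mixed picture. Of the 1.47 Mb of member windows, control 3 peaks covered 2.83%, against 1.87% of the windows of other genes. In dnTCF4 1 the shares were 1.16% and 0.653%, but in control 4 they were 0.529% and 0.606%, and in dnTCF4 3 0.0732% and 0.123%. The 18 member peaks of control 4 had a median width of 312 bp, where all its peaks had 471 bp, and their median fold enrichment was 3.52 against 3.39. The 45 member peaks of control 3 had a median of 3.12 against 3.01, and the 24 of dnTCF4 1 one of 3.43 against 3.5.

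The marked members were long. Their windows had a median of 48.0 kb, against 22.4 kb for the 25 unmarked members. Among other genes the medians were 32.7 kb with and 19.4 kb without a peak. In windows of 50 kb and over, 6 of 10 members were marked in any library, where 33.0% of other genes were. All 6 were marked in control 3, control 4 and dnTCF4 1, where 31.6%, 21.1% and 22.4% of other genes of that length were. In windows of 10 to 50 kb, 4 of 19 members were marked against 19.8% of other genes. Control 4 marked 1 of these 19 members, against 11.3% of other genes. In windows under 10 kb, 2 of 8 members were marked in any library, against 13.3% of other genes. The 2 longest windows, those of Tjp1 (235.7 kb) and Pkp4 (198.4 kb), had no peak.

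By chromosome, all 4 members on chromosome 5 (Cldn3, Cldn4, Cldn12 and Cldn15) lacked a peak, where 23.6% of other genes on that chromosome were marked in control 3. On chromosome 16, 3 of 7 members were marked, with 21.1% of other genes marked in control 3. Both members on chromosome 8 were marked, where 21.6% of other genes were in control 3. Where the window of another protein-coding gene overlapped that of a member, no member peak reached into it. Genes further out were not checked, though some peaks ran beyond the member window, as at Dsp in control 3. The windows of Cldn6 and Cldn9 overlapped by 3.86 kb, and neither had a peak.

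The peaks over the 12 genes joined into 54 regions, of which 17 were marked in both groups, 31 in control and 6 in dnTCF4 libraries only. Of the 31 regions found in control only, 27 were peaks of control 3 alone. Regions were not counted in this way over other genes, so these counts have no background. Control lists were also longer, with a mean of 19494.8 peaks against 7101.5 in dnTCF4 lists. The median width of the regions was 640 bp, 42 regions lay wholly inside the gene, and 3 touched an annotated gene end. Of the 24 member peaks of dnTCF4 1, 70.8% overlapped a control 3 peak and 45.8% a control 4 peak. Over all 21492 peaks of that library the shares were 79.0% and 50.1%. In the other direction, 35.6% of the 45 member peaks of control 3 overlapped a dnTCF4 1 peak, against 27.7% of all its peaks. Of the 18 member peaks of control 4, 66.7% were met by a dnTCF4 1 peak, against 48.1% of all its peaks.

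At several members the peaks flanked an end of the gene. An annotated gene end with a peak within 3 kb on both sides and none over it was found for 6 members in control 3 (Cldn1, Cldn23, Dsg2, Marveld3, Ocln and Pkp1), 2 in control 4 (Cldn23 and Ocln), 5 in dnTCF4 1 (Cldn14, Cldn23, Dsp, Ocln and Pkp1) and 1 in dnTCF4 3 (Pkp1). That is 16.2%, 5.41%, 13.5% and 2.70% of members, where 5.96%, 2.55%, 3.28% and 0.704% of other protein-coding genes had such an end. The gaps spanned 1.47 kb at Pkp1 in both control 3 and dnTCF4 1 and 1.54 kb at Dsg2. The widest was 4.41 kb, at Pkp1 in dnTCF4 3. An end under a peak was found for 3 members in control 3, 0 in control 4 and 1 in dnTCF4 1. Among other genes it was 2.98%, 1.04% and 1.26%. Of listed member starts with peaks within 3 kb on both sides, 2 of 3 were free in control 3, 1 of 1 in control 4 and 3 of 3 in dnTCF4 1. Among such starts of other genes, 76.2%, 81.4% and 83.7% were free.

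Fewer bases were covered at starts than beside them over other genes too. With 1 start per gene from the promoter table, control 3 peaks covered 1.14% of bases within 0.25 kb of the starts of 17251 other genes, 4.16% at 1 to 3 kb before and 3.41% at 1 to 3 kb after them. For the 23 members with a listed start the values were 6.63%, 9.54% and 9.01%, and the first of these came from Cldn7 and Cldn14, the 2 members whose promoter lay under a peak. In dnTCF4 1 they were 1.98%, 10.3% and 5.63% for members and 0.411%, 2.14% and 1.85% for other genes. In control 4, member starts had 0%, with 3.83% before and 3.58% after. The dip was deeper at CpG-rich starts. Among other genes with a CpG ratio of at least 0.6, control 3 covered 0.101% at the start and 3.76% before it, and among those under 0.6 it covered 2.13% and 4.54%.

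**Figure D4:**
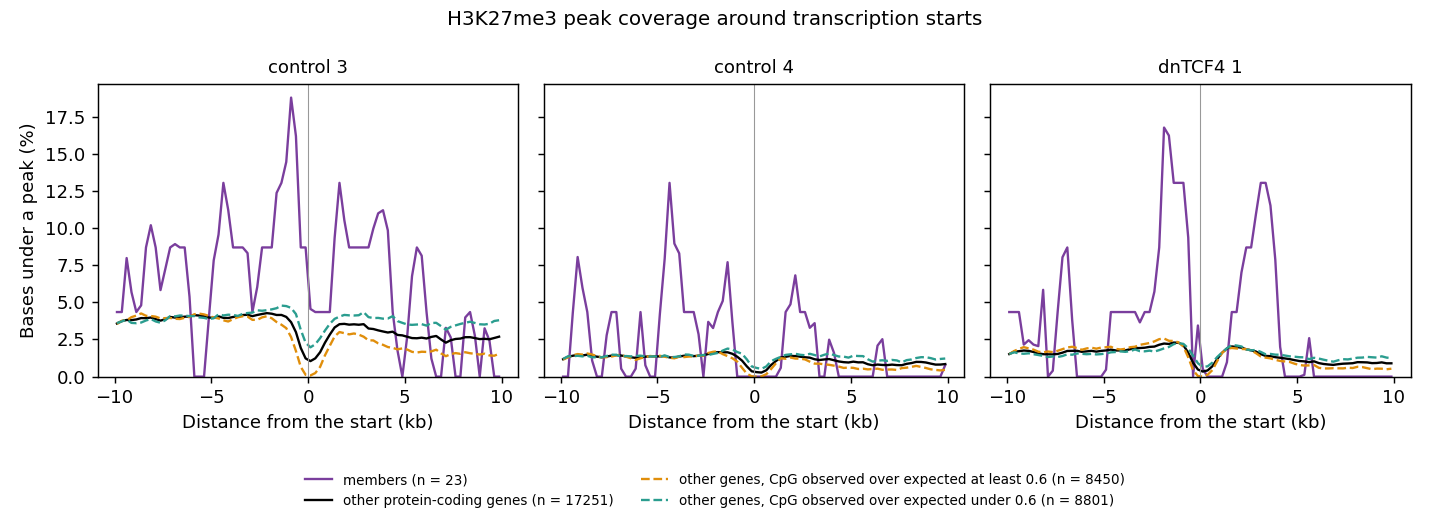
Bases under H3K27me3 peaks, in percent, by distance from the transcription start in kb (250-base bins, minus is before the start), in control 3, control 4 and dnTCF4 1. Purple is the 23 members, black the 17251 other protein-coding genes, and dashed lines split these by the CpG ratio of the promoter. The black line dips at the start in each panel, from 4.16% to 1.14% in control 3, and the few members give a jagged line that is high on both sides of the start.

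Promoters of marked and unmarked members had similar median CpG content. The median ratio of observed over expected CpG was 0.526 over the 12 promoters of 7 marked genes and 0.528 over the 23 promoters of 16 unmarked genes, and 0.574 over 21010 promoters of other genes. The E-box CACCTG, to which Snail and Zeb repressors bind, was found on either strand in 5 of 12 and 9 of 23 promoters, or 41.7% and 39.1%, against 19.9% of other promoters. The Grainyhead-like motif AACCNGTT was in 2 of the 35 member promoters, those of Cgn and Cldn5, against 1.97% of others, and the TCF/LEF motif CTTTGAT in 1, a promoter of Cldn18, against 3.25%. None of these motifs contains another, a match is no evidence of binding, and promoters of the same gene can share bases.

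Further genes of the same structures, and genes of the cornified layer, were taken from separate lists. Of 30 further tight junction genes, 8 were marked in any library, near the 21.4% of other protein-coding genes. Control 3 held 7 of them (background 20.1%), dnTCF4 1 held 5 (13.7%), control 4 held 4 (12.4%) and dnTCF4 3 held 2 (5.13%). Control 2 and dnTCF4 4 held 1 each (1.06% and 2.41%). Jam2, a junctional adhesion molecule, had peaks in 3 control and 3 dnTCF4 libraries, and Ildr1, a protein of tricellular contacts, in 2 and 2. Crb3, a polarity protein, had 23.3% of its window covered in control 3 and 13.4% in dnTCF4 1. Of 14 further desmosome and cornified layer genes, control 3 marked 5 and control 4 and dnTCF4 1 marked 4 each, beside the same backgrounds. Krt1, a keratin of differentiated skin, had 80.2%, 64.9% and 63.6% of its window covered in those libraries and 52.5% in dnTCF4 3, more than any of the 37 members there. Lor, the gene of loricrin, had 64.2%, 34.6% and 38.2%. The 5 genes marked in control 3 were Perp and the keratin or cornified layer genes Krt1, Krt10, Lor and Flg. The desmogleins Dsg1a, Dsg1b, Dsg1c and Dsg4 had no peak in any library, nor did Pnn and Kazn.

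Of 11 adherens junction genes, 2 were marked in any library (background 21.4%), Cdh1 (5.09% of its window in control 3, 1.78% in control 4 and 1.39% in dnTCF4 1) and Cdh3 (0.364% in control 3). Ctnnb1 and the other 8 had none. Of 20 mesenchymal genes, control 3 marked 3 (Col3a1, Postn and Thy1), control 4 marked 1 and dnTCF4 1 marked 2. The backgrounds in these libraries were 20.1%, 12.4% and 13.7%, and with only 20 genes the counts lie near them. Vim, Zeb1, Snai1 and Fn1 had no peak in any library, like most other protein-coding genes, of which 21.4% had one. None of the 75 genes of these lists differed between the groups by Fisher's exact test, where the lowest p was 0.429 (Cldn34a, marked in 2 control and 0 dnTCF4 libraries) and all adjusted p were 1.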

How the data were processed

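H3K27me3 ChIPmentation was deposited as 1 peak list per library, for 4 control and 4 dnTCF4 libraries; the 8 IgG libraries were not analysed here. The submitters' processing notes name MACS2 2.1.2, bedtools 2.28.0, SAMtools 1.2, Picard 2.20.2, Bowtie2 2.3.4.1, cutadapt and Trim Galore, with build mm10. Options of these tools, and whether MACS2 had a control library, were not given in the sources used here. With 9 columns and no header, each list has the layout of MACS2 broad peaks, from which the units were read. The deposited fold enrichment is a ratio from the authors' peak caller, and the deposited −log10 p and −log10 q values and the score derived from q are theirs too. Peak names carry the library name, so the authors called peaks per library.

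Genes came from RefSeq (GRCm38.p6, the assembly of mm10), whose gene table has no strand; strand was taken from the promoter table where a gene was in it. All 37 members matched. Overlaps, Fisher's exact tests, exact permutation tests over 70 assignments and Benjamini-Hochberg adjustment over all 21631 genes were computed in Python 3.11.15 with SciPy 1.17.1, and checked on simulated data: 200 genes marked in 1 group only all had an unadjusted p under 0.05 and 0 an adjusted one. The members and lists were chosen with earlier results of these data known. Values in every library were to be given for members marked in at least 3 libraries and those with the largest difference in libraries between groups (8 genes); the other 4 marked members were added after their values were seen. Alternatives are windows of 0 and 5 kb or at gene ends, −log10 q of at least 2, stricter overlaps, equal lists, 5 libraries of at least 1000 peaks, libraries left out, pairing by number and other tests.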

Additional observations from a re-analysis of the deposited data

Results flagged for a closer look

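Within groups of 4 libraries, single values stood apart from the rest by a gap whose share of the group's range was above Dixon's 95% critical value for 4 values. This was met in 10 of 26 groups, all at the longest list of their group. The usual rate of about 1 in 20 groups by chance does not apply where the other 3 libraries are at 0, since a gene marked in 1 library of its group always meets it. That was so for Cldn10, Cldn23, Dsg2, Dsp and Ocln in dnTCF4 1. In control 3 these were the covered shares of the windows of Cldn10 (4.92%), Cldn14 (10.9%) and Dsg2 (4.40%). In dnTCF4 1 they were those of Cldn10 (0.698%), Cldn14 (5.09%), Cldn23 (10.8%), Dsg2 (1.25%), Dsp (6.44%) and Ocln (6.18%), and the covered share of all member windows together (1.16%). Control 3 and dnTCF4 1 hold 54070 and 21492 peaks, the most in their groups; the part of list length in these values was not tested.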

How the results depend on the processing

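Over 20 alternatives, 0 genes passed the adjusted test of control against dnTCF4 in any of those where it was run. The number of members marked in at least 1 library fell from 12 to 7 with −log10 q of at least 2, to 4 with at least 10% of the window covered and to 1 with lists of equal length, and stayed at 12 with any single library left out. The background fell too under these 3 rules. In control 3 the marked share of other genes went from 20.1% to 7.90%, 7.54% and 0.380%, and its marked members from 12 to 6, 4 and 0. The share of marked members minus that of other genes had a median over libraries of 0.0121 percentage points, with 4 libraries marking no member; it was 9.17 in the 5 libraries with at least 1000 peaks and ran from -0.255 to 0.279 with a library left out. The difference in marked members (-1.75) moved by less than the spread between libraries under each alternative, but it was positive without control 3 (0.583) and with lists of equal length (0.25). It ran from -4.33 to 0.583 with a library left out and was -5.67 in the 5 libraries with at least 1000 peaks. Cldn10 went from 1 fewer to 1 more dnTCF4 than control library when only 2 kb around gene ends counted (1). Whether the numbers 1 to 4 pair the libraries could not be told. Deviations of same-numbered libraries correlated from -0.820 to 0.802 over genes, and 1 of 4 control libraries correlated best with its own number. These values went with list length, so they cannot decide it. Control 1, a short list, had -0.820 with the long dnTCF4 1 and 0.798 and 0.791 with the short dnTCF4 2 and dnTCF4 4. The replicate block, a sign-flip test over 4 pairs whose smallest p is 0.125, left the count of calls at 0 and the difference at -1.75. Peak lists give no depth, so weak marks in short lists cannot be seen.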
